A study of Mus musculus with 12 samples.

Results

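Mmp3+ synovial fibroblasts are the largest of 7 annotations that the authors gave to the CD45-negative cells of mouse ankle and wrist joints. The members were the cells whose deposited annotation reads Mmp3+. There were 1660 of them among 3551 annotated cells in the fibroblast wells and 8042 annotated cells in the series, and 1658 matched a barcode of the count matrices. The other annotations were Il6+ (772 cells), Pi16+ (629), Lining (158), Cd200+ (109), Osteoblasts (127) and Chondrocytes (96).

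All mice were of the strain R5 x R26tdTomato, 8 to 10 weeks old, with 1 Cre allele and 1 wild-type allele at Il5 and tdTomato on both copies of the Rosa26 locus. Cre is therefore driven from the Il5 locus, and Il5 had no UMI in any Mmp3+ cell. A UMI is a molecular tag that counts 1 captured transcript. Controls (HC) were untreated, STA mice had serum transfer arthritis, in which antibodies in transferred serum inflame the joints, and 1 group had STA and an interleukin-23 minicircle (STA + Il23mc), a DNA circle that expresses the cytokine. Joint cells were sorted as viable, CD45-negative and GR-1-negative, pooled in 2 droplet wells, and told apart by hashtag antibodies. Experiment 1 had 1 hashtag each for HC, STA and STA + Il23mc. Experiment 2 had 1 hashtag for HC and 2 for STA, which the deposited table calls mild and severe. The labels give 4 animals to a well but 3 hashtags, so how many animals stand behind a hashtag is not given. The hashtag was taken as the replicate, and p-values measure only the spread between these hashtags.

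Matrix metalloproteinase 3 (stromelysin 1) is a secreted protease that cleaves proteoglycans, fibronectin and several collagens and activates other proteases. Synovial fibroblasts line the joint and fill the tissue below the lining. In arthritis they are known as a source of proteases, of chemokines that attract neutrophils and monocytes, and of RANKL (Tnfsf11), the ligand that drives osteoclast formation and is blocked by its decoy receptor osteoprotegerin (Tnfrsf11b).

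The 3 hashtag oligonucleotides are shown because the assignment of the few HC cells rests on them. All letters are capitals as the labels give them, with 15 bases each.

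Hashtag 1, HC in both experiments: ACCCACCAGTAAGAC

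Hashtag 2, STA in experiment 1 and mild STA in experiment 2: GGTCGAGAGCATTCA

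Hashtag 3, STA + Il23mc in experiment 1 and severe STA in experiment 2: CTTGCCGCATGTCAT

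Mmp3+ cells were rare under the HC hashtag, and the HC calls were the weakest. Experiment 1 held 10 HC, 655 STA and 634 STA + Il23mc cells, and experiment 2 held 29 HC, 139 mild and 191 severe cells. The called hashtag was also the most abundant one in 98.4% to 100% of the Mmp3+ cells of each STA hashtag, including STA + Il23mc. It was the most abundant in 4 of 10 HC cells of experiment 1 and in 15 of 29 of experiment 2. The 15 HC cells of experiment 2 whose hashtags agreed held Mmp3 at 56.2 CPM, the 14 others at 1542 CPM, where CPM is UMIs per 1000000 UMIs of the summed cells. The same 15 cells held Tppp3 at 1335 CPM and no Saa3, against 206 CPM of Tppp3 and 347 CPM of Saa3 in the 14 others. The Y-linked Ddx3y, chosen after its values were seen, stood at 93.7 CPM in the 15 cells, at 8.57 CPM in the 14 others and, in the same well, at 0.249 CPM under the mild and 33.8 CPM under the severe hashtag. The other fibroblasts of that HC hashtag did not differ this way, with Ddx3y at 59.5 CPM in agreeing and 62.6 CPM in other cells, nor did Mmp3+ HC cells of experiment 1 (28.8 and 27.2 CPM). The HC cells of experiment 1 differed the other way, with Mmp3 at 4224 CPM in the 4 agreeing cells and 209 CPM in the 6 others. The comparisons with HC and with the other fibroblasts were therefore also made with agreeing cells only. The part of hashtag assignment was not tested beyond that.

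The HC sums were also shallow, with 179624 UMIs in experiment 1 and 446987 in experiment 2, against 4012096 to 13446356 for the other hashtags. Median UMIs per Mmp3+ cell ran from 13325 to 27183, and the class as a whole had a median of 20568.5 against 9620 in the other fibroblast annotations. No Mmp3+ barcode occurred in both fibroblast wells, and 1 was also the barcode of an annotated lymphoid cell of the series. Of the markers of other cells, Ly6g, Cd3e, Il5 and Il13 were at 0 in all hashtags. The summed levels ran from 4.47 to 13.3 CPM for macrophage genes, from 5.57 to 39.5 CPM for neutrophil genes and from 0 to 11.2 CPM for endothelial genes. Muscle genes reached 127.5 CPM and erythroid genes 116 CPM in HC of experiment 2, against at most 39.4 and 12.2 CPM elsewhere.

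The label fitted the gene it names. Within each of the 6 hashtags Mmp3 was higher in Mmp3+ cells than in the other fibroblast annotations together, by a median log2 ratio of 2.04 (range 0.70 to 2.78). This held in 5 of 6 hashtags with agreeing cells only, since the 15 HC cells of experiment 2 held 56.2 CPM and the agreeing other fibroblasts 146.5 CPM. Cthrc1, a secreted collagen triple helix protein of remodelling tissue, was higher in 6 of 6 hashtags with a median log2 ratio of 3.38, and so was Tnfsf11 with 3.19. They were higher in 5 and 6 hashtags, by medians of 2.27 and 2.76, with agreeing cells only. Cxcl5, a neutrophil-attracting chemokine, was higher in 5 of 6 hashtags with a median log2 ratio of 1.33. The exception was HC of experiment 2, where Mmp3+ cells held 11.2 CPM and the other fibroblasts 30.9. Since the annotation was drawn from the expression of these cells, the ratios describe the class and carry no test.

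**Figure D1:**
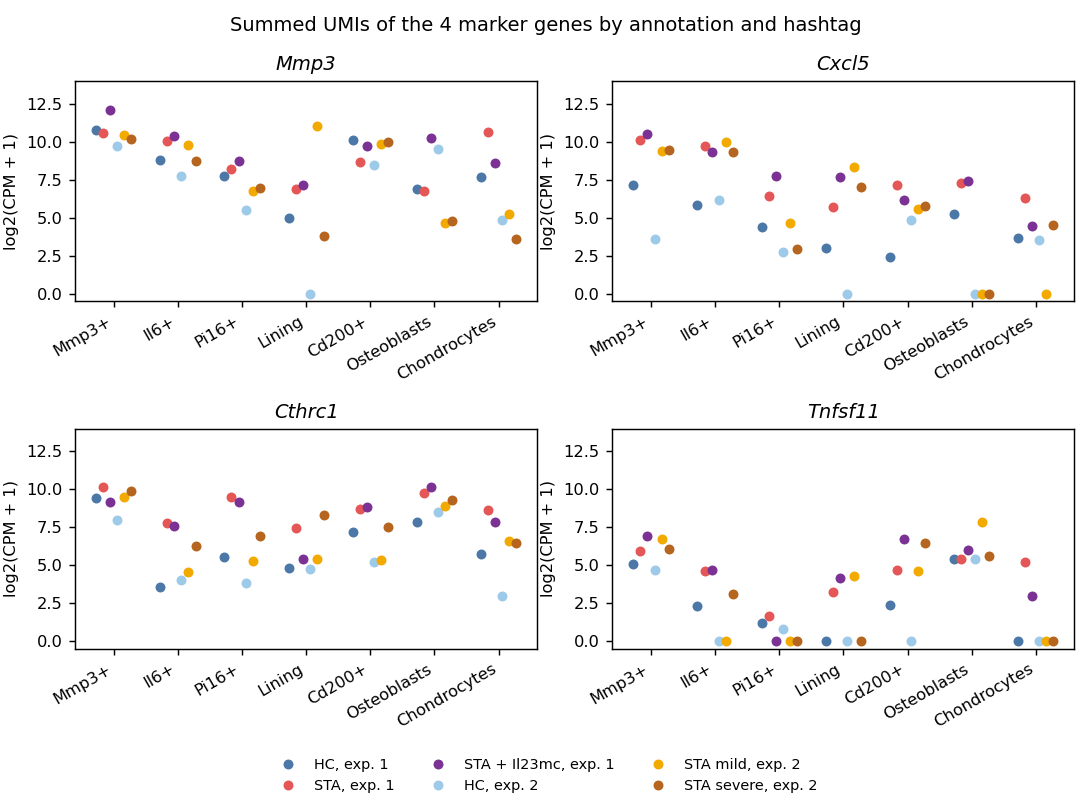
log2(CPM + 1) of Mmp3, Cxcl5, Cthrc1 and Tnfsf11 (vertical axes) in the summed cells of the 7 annotations (horizontal axes), 1 point per hashtag. Mmp3 is high in every Mmp3+ point, Cxcl5 is about as high in Il6+ cells, and Cthrc1 and Tnfsf11 are also high in osteoblasts.

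Single annotations reached the level of Mmp3+ cells in places. Lining cells of the mild hashtag held 2081 CPM of Mmp3 against 1397 in Mmp3+ cells, and chondrocytes of STA in experiment 1 held 1624 against 1552. Neither of these annotations did so in another hashtag. Cxcl5 exceeded the Il6+ level in only 4 of 6 hashtags, and in the mild hashtag Il6+ cells held 998 CPM against 683. Osteoblasts held more Spp1 than Mmp3+ cells on average (3855 against 902 CPM). For Tnfsf11 the means were 77.1 CPM in osteoblasts and 68.8 CPM in Mmp3+ cells, and 47.2 against 61.5 CPM without the mild hashtag, whose osteoblasts held 226 CPM. Osteoblasts also held more Tnfsf11 in HC of experiment 1 (42.3 against 33.4 CPM) and of experiment 2 (41.1 against 24.6 CPM), and less under the remaining hashtags. Cd200+ cells of the severe hashtag held 88.0 CPM of Tnfsf11 against 66.2 in Mmp3+ cells, and less than Mmp3+ cells in the other hashtags. In STA + Il23mc, Cthrc1 stood at 584 CPM in Pi16+ cells and 1140 CPM in osteoblasts, against 583 CPM in Mmp3+ cells. Osteoblasts of HC in experiment 2 held 365 CPM of Cthrc1 against 246.

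The promoters of 3 genes are printed because Mmp3 and Tnfsf11 mark the class and Saa3 and Tnfsf11 rose in STA within it. Each is the RefSeq window on GRCm38.p6 from 250 bases before to 50 bases after the annotated gene start, on the strand of the gene. Capitals mark matches, on either strand, to the AP-1 motif TGANTCA, the C/EBP motif TTGCNNAA or the TATA motif TATAAA, which were searched one by one and may overlap. A kappaB motif was searched as well and had no match in these 3 windows.

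Mmp3, chr9:7445572-7445871, plus strand: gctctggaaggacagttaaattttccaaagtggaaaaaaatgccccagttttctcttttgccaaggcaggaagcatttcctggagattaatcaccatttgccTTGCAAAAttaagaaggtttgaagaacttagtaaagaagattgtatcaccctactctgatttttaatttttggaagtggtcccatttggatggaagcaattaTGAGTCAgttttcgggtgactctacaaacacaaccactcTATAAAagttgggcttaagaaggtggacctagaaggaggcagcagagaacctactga

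Saa3, chr7:46715627-46715926, minus strand: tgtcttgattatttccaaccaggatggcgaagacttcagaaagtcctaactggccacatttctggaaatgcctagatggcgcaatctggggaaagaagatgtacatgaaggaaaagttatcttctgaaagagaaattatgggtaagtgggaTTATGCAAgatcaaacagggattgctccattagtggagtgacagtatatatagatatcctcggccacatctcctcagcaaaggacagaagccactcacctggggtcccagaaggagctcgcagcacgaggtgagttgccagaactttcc

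Tnfsf11, chr14:78307994-78308293, minus strand: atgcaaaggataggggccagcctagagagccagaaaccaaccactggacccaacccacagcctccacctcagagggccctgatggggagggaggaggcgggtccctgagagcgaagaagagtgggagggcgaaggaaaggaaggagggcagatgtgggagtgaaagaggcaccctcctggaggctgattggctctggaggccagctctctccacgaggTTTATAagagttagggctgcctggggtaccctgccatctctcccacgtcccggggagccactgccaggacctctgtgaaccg

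The Mmp3 window held an AP-1 match at -46, a C/EBP match at -148 and a TATA match at -7, counted from the annotated start. The Saa3 window held a C/EBP match at -99 and the Tnfsf11 window a TATA match at -32, both read on the opposite strand. Of 32851 promoter windows of the same length, 7.81% held the AP-1 motif, 10.8% the C/EBP motif, 13.6% the TATA motif and 1.63% the kappaB motif. A match is a run of letters and not a bound site.

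Beyond the 4 markers, Acan, C1qtnf3, Ltbp2, Mmp13 and Spp1 stood high in Mmp3+ cells. Of 6075 genes, 1134 (18.7%) were higher than in the other fibroblasts in all 6 hashtags and 1027 (16.9%) were lower. The counts were 735 and 744 with agreeing cells only. Acan, the core protein of aggrecan, led by a median log2 ratio of 4.13, with 135 to 263 CPM in Mmp3+ cells against 3.76 to 25.3 CPM in the other fibroblasts. C1qtnf3 (3.76) and Ltbp2 (3.54), secreted proteins of the matrix, and Mmp13 (3.19), the main collagenase of the mouse, followed. Spp1 (osteopontin), Tnn (tenascin N), Crabp2 and Fabp5, which bind retinoic acid and fatty acids, and Acta2 (smooth muscle actin) were also higher in 6 of 6 hashtags. Acan and C1qtnf3, with agreeing cells only, were higher in 4 of 6 hashtags, Ltbp2, Mmp13, Spp1 and Tnn in 5, and Crabp2, Fabp5 and Acta2 in 6. Acan had no UMI in the agreeing Mmp3+ cells of either HC hashtag. Chondrocyte genes summed to 1389 to 2611 CPM and tendon genes to 1152 to 3129 CPM across the 6 hashtags, in HC as well as in STA.

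The genes lowest relative to the other fibroblasts were high in other annotations. Clic5, a lining gene, had a median log2 ratio of -5.09 and stood at a mean of 813 CPM in Lining cells and 2.89 in Mmp3+ cells. Ccl11 (eotaxin, -4.55), Inmt (-4.90) and Abca8a (-3.98) were lower in 6 of 6 hashtags and were highest in Il6+ or Pi16+ cells. Prg4 (lubricin), the lubricant of the joint surface, was higher in Mmp3+ than in Il6+ cells in 6 of 6 hashtags, at a mean of 4591 against 1223 CPM, and far below the 68751 CPM of Lining cells. Over 7204 genes the profile summed over all hashtags was closest to that of Il6+ cells (Pearson r = 0.892 across genes). Cd200+ cells came next (0.865), and both are from the same wells. These sums hold HC cells in unlike shares, with 10 and 29 HC cells in the Mmp3+ sum and 205 and 126 in the Pi16+ sum. The part of the condition in these correlations was not tested.

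Not every Mmp3+ cell held an Mmp3 UMI. With each cell thinned to 2000 UMIs, Mmp3 was found in 38.7% of STA cells and 60.9% of STA + Il23mc cells in experiment 1, and in 39.0% of mild and 20.5% of severe cells in experiment 2. The unthinned shares were 71.8%, 83.4%, 67.6% and 57.6%. Thinned Pi16+ cells, which have little Mmp3, gave 23.1%, 27.3%, 15.5% and 10.5% in the same 4 hashtags, with 2000 UMIs per cell in both. In HC the gene sat in few cells, and 3 cells held 98.4% of its UMIs in experiment 1 and 94.4% in experiment 2.

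In the 4 STA hashtags, STA + Il23mc included, the share of cells with Mmp3 was larger among cells with Mmp13 or Tnfsf11. It was also larger among cells with Saa3, Spp1 or Il6, and smaller among cells with Cthrc1. After thinning, Mmp3 was present in 59.0% of STA cells of experiment 1 that held Mmp13 and in 27.8% of those that did not. The pair of shares was 75.8% and 54.5% in STA + Il23mc, 84.6% and 28.2% in mild, and 53.3% and 14.4% in severe cells. Cells with Tnfsf11 had the larger share in each of these 4 hashtags, with 62.5% against 36.4% in STA of experiment 1 and 43.8% against 18.4% in the severe hashtag. Cells with Cthrc1 had the smaller share in each of the 4, with 34.0% against 48.8% in STA of experiment 1, 49.7% against 70.6% in STA + Il23mc, 36.0% against 42.6% in mild and 18.6% against 23.6% in severe cells. In HC the shares for Cthrc1 lay the other way (2 of 3 against 0 of 7 cells, and 1 of 3 against 5 of 24), and for Tnfsf11 in experiment 2 they were 0 of 2 against 6 of 25. These are shares of cells within a hashtag and were given no test.

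The class made up a small share of fibroblasts in HC and a large one in STA. Of annotated fibroblasts, without osteoblasts and chondrocytes, Mmp3+ cells were 10 of 408 (2.45%, exact 95% interval 1.18 to 4.46) in HC of experiment 1 and 29 of 268 (10.8%) in HC of experiment 2. They were 655 of 943 (69.5%) in STA and 634 of 953 (66.5%) in STA + Il23mc of experiment 1. In experiment 2 they were 139 of 283 (49.1%) under the mild and 191 of 470 (40.6%) under the severe hashtag. The HC and STA hashtags did not overlap.

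The mean share was 6.64% ± 5.92 (SD, n = 2) in HC and 53.1% ± 14.8 (SD, n = 3) in STA, a difference of 46.4 percentage points. The exact two-sided permutation test over the 5 hashtags gave p = 0.2, the smallest value that the test as computed can give here. With agreeing cells only, the difference was 47.6 points. Within experiment 1 the shares were 2.45% and 69.5%, and within experiment 2 they were 10.8% against 49.1% and 40.6%. Cxcl5, Cthrc1 and Tnfsf11, which mark the class, were themselves higher in STA within it as given further on, so shares and marker levels are not separate readouts.

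**Figure D2:**
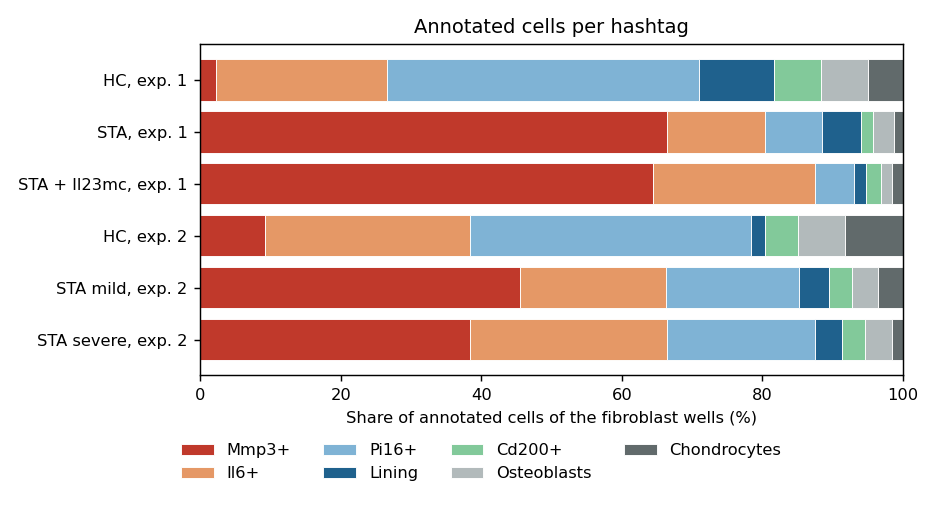
Share (%) of each of the 7 annotations among all annotated cells of the fibroblast wells (horizontal axis), 1 bar per hashtag. The Mmp3+ segment is 2.16% and 9.21% in the 2 HC bars and 38.4% to 66.5% in the 4 others.

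The next comparison asked which genes changed within Mmp3+ cells between HC (2 hashtags) and STA (3 hashtags). Summed counts of the 6 hashtags were fitted with edgeR's quasi-likelihood test, with the experiment as a term and p-values adjusted by the Benjamini-Hochberg method over all 12706 genes tested. In STA 435 genes (3.42%) were higher and 357 (2.81%) lower at an adjusted p below 0.05, 6.23% in all. Of these 792 genes, 663 did not overlap between HC and STA hashtags, where 35.4% of all tested genes did not. Calls were 54.9% higher genes here, 45.0% with another size-factor scaling and 38.0% with DESeq2.

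The HC cells limit this comparison. Without the HC hashtag of experiment 2, 6 genes were higher and 27 lower, and no gene list had more than 1 member past the threshold in either direction, apart from 2 lower cell cycle genes. Without that of experiment 1 the counts were 154 and 202, and without the STA hashtag of experiment 1 they were 106 and 171. With 1 HC hashtag left, that sum is assumed to vary like the other groups. With agreeing cells only, 409 were higher and 242 lower, of which 267 and 192 were among the genes called above. Of 107 named genes past the threshold, Cxcl5, Igfbp4 and Slc1a3 were past it whichever single HC or STA hashtag was left out.

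Cxcl5 rose. It stood at 145 and 11.2 CPM in HC of experiments 1 and 2, at 1101 CPM in STA of experiment 1, at 683 and 718 CPM in the mild and severe hashtags, and at 1478 CPM in STA + Il23mc. Both HC hashtags lay far below all the others, although 26 of the 31 HC UMIs came from 1 cell. The fitted log2 difference was 4.26 (SE 0.33, adjusted p = 1.4e-10), and 3.10 to 6.14 with 1 hashtag left out. Without the experiment term in the fit its adjusted p was 0.0534, while that of Igfbp4 was 0.0159 and that of Slc1a3 0.0145.

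Igfbp4, a binding protein that holds insulin-like growth factors, rose at a high level. It measured 718 and 414 CPM in HC, 2497 CPM in STA of experiment 1, 2709 and 2417 CPM in mild and severe, and 1949 CPM in STA + Il23mc. The fitted log2 difference was 2.46 (SE 0.21, adjusted p = 6.6e-10), and the groups did not overlap. Slc1a3, a glutamate transporter, had 3 HC UMIs in all (0 and 6.71 CPM) and 75.5 to 85.9 CPM in the 3 STA hashtags. The ratio of the summed groups was 17.1 with a 95% counting interval of 5.83 to 82.9.

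The other genes with the largest rises were nearly absent from HC, so their size is poorly fixed. Parm1, a mucin-like membrane protein, had 0 HC UMIs and 17.7, 19.2 and 24.5 CPM in STA, at least 4.07-fold higher against a floor of 3 counts over the HC group. Plac8 had 1 HC UMI and a group ratio of 24.3 (4.35 to 962). F13a1, the catalytic subunit of clotting factor XIII, had 2 and a ratio of 17.5 (4.84 to 145). Rspo2, a secreted enhancer of Wnt signalling, had 1 and a ratio of 16.7 (2.98 to 660). Chil1, a chitinase-like secreted protein, had 1 and a ratio of 11.4 (2.04 to 452). All of these are intervals of counting error, and they overlap one another.

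Among neutrophil-attracting chemokines the members went apart. Of 4 tested, Cxcl5 and Cxcl3 rose and Cxcl1 and Cxcl2 fell. Cxcl2 measured 1002 and 604 CPM in HC and 391, 131 and 230 CPM in STA, a log2 difference of -1.39 (SE 0.19, adjusted p = 8.8e-06). Cxcl3 had a single HC UMI, and the ratio of the summed groups was 24.9 with an interval of 4.46 to 985. With agreeing cells only the 2 higher calls were made and neither fall was past the threshold, 1 of them at an unadjusted p below 0.05. Without HC of experiment 2 only the rise of Cxcl5 was called.

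Of 13 other chemokines 3 rose and 1 fell. Among agreeing cells 2 rose and none fell, with 4 higher and 2 lower at an unadjusted p below 0.05. Cxcl14, a chemokine of tissue-resident stroma, rose with a log2 difference of 1.71 (SE 0.24, adjusted p = 7.7e-06). Ccl2, the main attractant of monocytes, was at 1943 and 3184 CPM in HC and at 922, 824 and 934 CPM in STA, a fall of 1.35 on the log2 scale (adjusted p = 2.8e-06). The 3 STA values lay close together and below both HC values, but the fall of Ccl2 was not past the threshold with agreeing cells only. Ccl20 had 2 HC UMIs, and the ratio of the summed groups was 12.5 with an interval of 3.46 to 104. Il6 was at 262 and 667 CPM in HC and 227, 576 and 358 CPM in STA, with overlapping groups and an adjusted p of 0.657.

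Mmp3 itself did not pass the test. It measured 1759 and 832 CPM in HC, 1552, 1397 and 1180 CPM in STA, and 4455 CPM in STA + Il23mc. The groups overlapped, and the log2 difference was 0.47 (SE 0.19, adjusted p = 0.164). Of 11 MMP genes tested 4 rose (Mmp2, Mmp14, Mmp19 and Mmp23) and Mmp10 fell. Among agreeing cells 4 of 10 rose and none fell, and the log2 difference of Mmp10 turned to 1.49 (adjusted p = 0.964). Without HC of experiment 2 none of the 11 was past the threshold of edgeR, 4 higher and 2 lower had an unadjusted p below 0.05, and DESeq2 with both HC hashtags called 3 higher and 1 lower. The median log2 difference was 0.62, or 0.47 with members absent from a group at their bound, beside 0.09 over all genes. Mmp13, at 573 and 2137 CPM in HC and 1648, 979 and 571 CPM in STA, overlapped between groups. In HC of experiment 2 a single cell held 935 of its 955 UMIs. Timp1, an inhibitor of these proteases, rose by a log2 difference of 1.26 (SE 0.18, adjusted p = 8.9e-06), with 1319 and 749 CPM in HC and 2458, 1672 and 1748 CPM in STA. All 8 cathepsins tested had positive differences, 5 past the threshold, and Ctsk, a collagen-degrading protease, had 1.00 (adjusted p = 7.7e-04). With another scaling 1 of the 8 was called, with DESeq2 1 and with agreeing cells only 2.

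Among osteoclast regulators the ligand rose and its decoy receptor fell. Tnfsf11 was at 33.4 and 24.6 CPM in HC, at 60.2, 105 and 66.2 CPM in STA and at 123 CPM in STA + Il23mc, a log2 difference of 1.68 (SE 0.36, adjusted p = 0.00215). The groups did not overlap, yet the HC values are 17 UMIs in all. With either HC hashtag left out, the rise of Tnfsf11 was no longer past the threshold. The rise of Tnfsf11 was not larger than in the other fibroblasts. Its difference of the log2 responses was -1.90 (SE 0.76, adjusted p = 0.45 in the interaction test given further on). Tnfrsf11b was at 16.7 and 110 CPM in HC and 11.4, 15.7 and 13.8 CPM in STA, a log2 difference of -2.24 (SE 0.35, adjusted p = 4.9e-05). The HC hashtag of experiment 2 stood far above every other value, and 35 of its 49 UMIs came from 1 cell. The log2 difference of Tnfrsf11b was -0.38 (adjusted p = 0.859) without that hashtag and -0.55 (adjusted p = 0.724) with agreeing cells only. Csf1, the macrophage growth factor that osteoclast precursors need, fell by 1.16 on the log2 scale (adjusted p = 2.7e-04). Of 8 regulators tested 1 rose and 2 fell, and the median was 1.48, or -0.22 with members absent from a group at their bound. Without HC of experiment 2 none of the 8 was past the threshold of the edgeR test, 1 had an unadjusted p below 0.05, and DESeq2 with both HC hashtags called 1 higher and 2 lower.

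**Figure D3:**
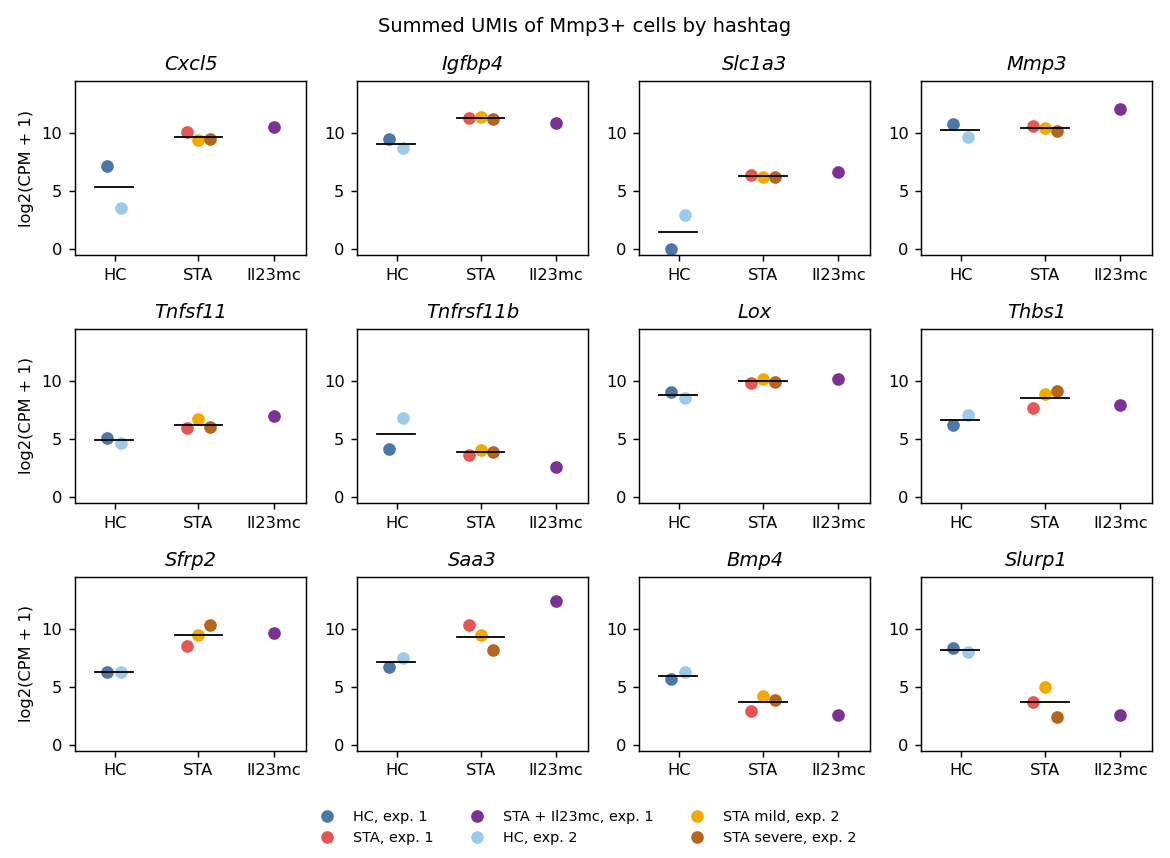
log2(CPM + 1) of 12 genes in the summed Mmp3+ cells (vertical axes) for HC, STA and STA + Il23mc (horizontal axes), 1 point per hashtag and a line at the mean of the HC and the STA points. Cxcl5, Igfbp4 and Slc1a3 separate HC from STA, while the Mmp3 points of HC and STA overlap.

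Genes of the fibrillar matrix formed the broadest group that rose. Of 17 fibrillar collagens and crosslinking enzymes 13 rose and the other 4 differences were also positive, with a median log2 difference of 1.03 beside 0.09 over all genes. With agreeing cells only 15 of 17 rose, with another scaling 12 and with DESeq2 11. Without HC of experiment 2 none was past the threshold of the edgeR test and 12 had an unadjusted p below 0.05. All 17 differences were then positive, as were 60.4% of those of all genes. Lox, which crosslinks collagen, was at 546 and 362 CPM in HC and 909, 1160 and 997 CPM in STA, a log2 difference of 1.41 (SE 0.20, adjusted p = 1.3e-05). Both HC values lay below all STA values. P4ha3, a collagen prolyl hydroxylase, had a log2 difference of 1.75, and Col11a1, a collagen that seeds thin fibrils, one of 1.41.

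Matricellular proteins, which bind matrix and cells without building fibres, rose for the most part. Of 15 tested 8 rose and 1 fell, with agreeing cells only 12 rose and 1 fell, and with DESeq2 6 rose and none fell (1 at an unadjusted p below 0.05). Without HC of experiment 2 edgeR called 1 higher and none lower, with 9 and 1 at an unadjusted p below 0.05. Postn (periostin) was at 1319 and 868 CPM in HC and 2286, 2498 and 3165 CPM in STA, 2.83-fold higher in the fit (SE 0.20 on the log2 scale, adjusted p = 4.3e-06). Thbs1 (thrombospondin 1), which activates latent TGF-beta, was at 72.4 and 134 CPM in HC and 209, 477 and 555 CPM in STA, a log2 difference of 2.01 (adjusted p = 1.6e-07). Cthrc1 was at 696 and 246 CPM in HC and 1140, 708 and 965 CPM in STA, a log2 difference of 1.48 (adjusted p = 1.8e-05). In these 3 genes the groups did not overlap, and for Cthrc1 the highest HC and the lowest STA value were nearly equal. Ccn3 fell, but without HC of experiment 2 its difference was 0.07. Contractile genes rose in 5 of 10, among them Myl9 (log2 difference 1.80) and Tagln (1.24). DESeq2 called 1 of them, edgeR without HC of experiment 1 called 1 of 11, and edgeR without HC of experiment 2 called none of 11, with 4 at an unadjusted p below 0.05.

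Growth factor regulators changed in both directions. Sfrp2, a secreted Wnt antagonist, was at 77.9 and 78.3 CPM in HC, at 374, 703 and 1303 CPM in STA and at 800.0 CPM in STA + Il23mc, a log2 difference of 3.42 (SE 0.30, adjusted p = 2.1e-09). Its HC values were nearly equal and its STA values spread widely. The agreeing cells of both HC hashtags held no Sfrp2 UMI, so its HC level came from cells whose most abundant hashtag was another one. Sfrp1 rose by 2.21, and 2 of 8 Wnt antagonists rose in all. H19, an imprinted transcript next to Igf2, rose by 2.98 (adjusted p = 5.9e-09) and Igfbp6 fell by 1.92 on the log2 scale (adjusted p = 5.6e-07). Of 20 genes of TGF-beta and BMP signalling 4 rose and 4 fell. Bmp2 (184 and 320 CPM in HC, 45.3 to 91.5 CPM in STA) and Bmp4 (50.1 and 76.1 CPM in HC, 6.61 to 17.2 CPM in STA) fell by 1.95 and 2.29 on the log2 scale, and Inhba, the subunit of activin A, rose by 1.37. Among agreeing cells 2 of this list rose and 4 fell.

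Inflammatory genes changed unevenly. Saa3, an acute-phase protein made in tissue, was at 106 and 181 CPM in HC, at 1278, 693 and 282 CPM in STA and at 5476 CPM in STA + Il23mc, a log2 difference of 2.36 (SE 0.34, adjusted p = 1.1e-05). Its STA values spread widely, with the severe hashtag lowest. Single cells held 17 of 19 HC UMIs in experiment 1 and all 81 in experiment 2, and without either HC hashtag the call was lost (adjusted p = 0.179 without experiment 1, 0.14 without experiment 2). Of 15 genes of NF-kB feedback and the acute phase 3 rose and 2 fell, and 1 rose and none fell with agreeing cells only (3 lower at an unadjusted p below 0.05). Of 12 complement genes 4 rose and 1 fell, with Cfb (complement factor B) at a log2 difference of 2.32 (adjusted p = 1.3e-07), and 2 rose and 1 fell with agreeing cells only. Ptgs2 (cyclooxygenase 2) had 1.10, Il33 1.53 and its receptor Il1rl1 1.47. Of 21 immediate early and dissociation genes 4 fell and 10 differences were positive, with Hspa1a at 601 and 1960 CPM in HC and 317, 888 and 599 CPM in STA. Of 20 cell cycle genes 1, Nusap1, fell. Their median log2 difference was -0.14, but 0.88 without HC of experiment 1 and -0.91 without HC of experiment 2. Summed cell cycle levels were 4242 and 1143 CPM in HC and 1874, 1356 and 1378 CPM in STA.

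Several genes with the largest falls came from few HC cells. Slurp1, a secreted protein of keratinocytes, was at 328 and 260 CPM in HC and 12.3, 30.7 and 4.25 CPM in STA, a log2 difference of -4.08 (adjusted p = 2.1e-09). Dmkn (dermokine, also of skin) had -4.04. In experiment 1, 2 cells held all 59 HC UMIs of Slurp1, and in experiment 2 the top 3 of 29 cells held 80.2%. For Dmkn the top 3 cells held 93.8% and 97.0%. Krt14, a keratin chosen after its values were seen, had 61 of 63 UMIs in 3 HC cells of experiment 1. Scg3 fell by 4.90 on the log2 scale, with 75.9 CPM ± 12.9 (SD, n = 2) in HC and 0.751 to 5.26 CPM in STA. Muscle (Acta1, Ckm) and erythroid (Hba-a1, Hba-a2) transcripts were lower in STA by the same test, with their HC UMIs nearly all in experiment 2. The part of these other-cell transcripts in the list of lower genes was not tested.

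The response to STA was then compared between Mmp3+ cells and the other fibroblasts (Il6+, Pi16+, Lining and Cd200+ together) as an interaction term in 1 edgeR quasi-likelihood fit over 12 sums. Of 12805 genes, 19 (0.148%) had a larger difference in Mmp3+ cells and 35 (0.273%) a smaller one at an adjusted p below 0.05, 0.422% in all. Before adjustment 702 and 480 genes were below 0.05. The response of Cxcl5 was 3.75 on the log2 scale (SE 0.20) in the other fibroblasts, beside 4.26 in Mmp3+ cells. Without HC of experiment 2 none was larger and 6 were smaller (621 and 382 before adjustment), and none of the 16 genes named here was past the threshold in every leave-out. Among agreeing cells 26 genes were larger and 19 smaller, of which 9 and 14 were among those above.

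**Figure D4:**
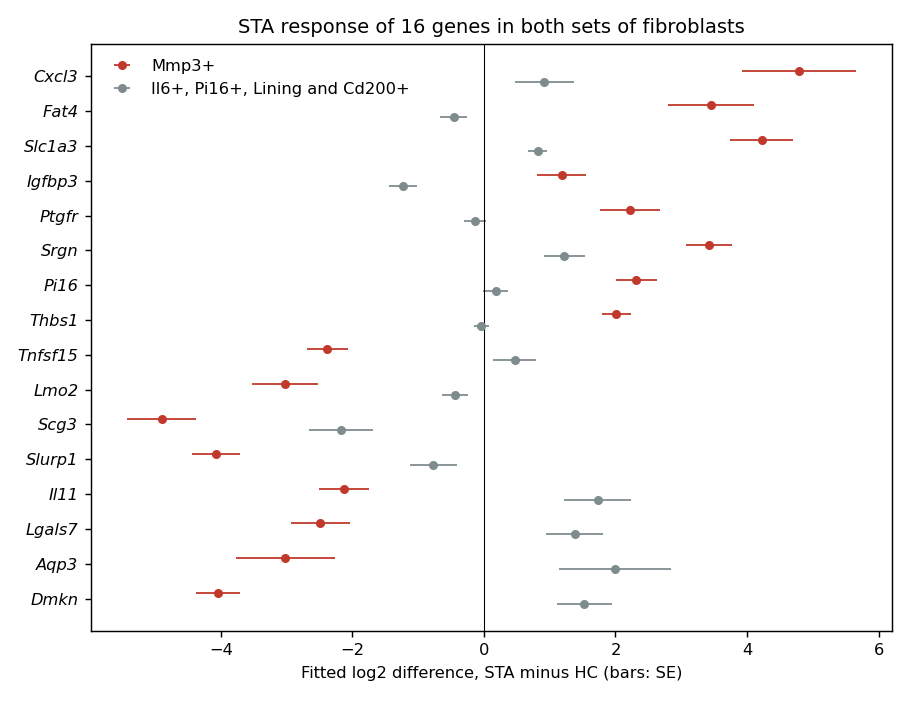
Fitted log2 difference between STA and HC (horizontal axis, bars are standard errors) for the 16 named genes (vertical axis) in Mmp3+ cells and in the 4 other fibroblast annotations together. Thbs1, Pi16 and Ptgfr are near 0 in the other fibroblasts. Il11, Lgals7, Aqp3 and Dmkn point in opposite directions with all cells, although none of these 4 was called with agreeing cells only. Fat4, Igfbp3 and Tnfsf15 also point in opposite directions, and of these Igfbp3 was called with agreeing cells as well.

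Thbs1 and Pi16 rose in Mmp3+ cells and had responses near 0 in the other fibroblasts, with log2 differences of -0.04 and 0.18. Thbs1 was at 312 and 568 CPM in HC and 321, 612 and 517 CPM in STA in the other fibroblasts, with overlapping groups, while it rose in Mmp3+ cells as given above. The difference of the log2 responses was 2.03 (SE 0.25, adjusted p = 0.00339). Pi16, a peptidase inhibitor that marks fibroblasts of the adventitia, was at 33.4 and 105 CPM in HC and 203, 254 and 593 CPM in STA in Mmp3+ cells, and at 977 to 1699 CPM in the other fibroblasts of HC and STA. Its difference was 2.08 (SE 0.28, adjusted p = 0.00429). Both were past the threshold with any 1 hashtag left out except HC of experiment 2. The difference in agreeing cells was 2.15 (adjusted p = 0.0225) for Thbs1 and 1.73 (adjusted p = 0.0646) for Pi16. The mix of the pooled annotations also changed. Pi16+ cells numbered 205 in HC and 80 in STA of experiment 1, beside 113 and 137 Il6+ cells. In experiment 2 they numbered 126 in HC, 58 in mild and 105 in severe, beside 92, 63 and 139 Il6+ cells. The part of this mix in the pooled responses was not tested. Of 14 sublining and universal fibroblast genes, Pi16 alone was called higher in STA within Mmp3+ cells. Pdgfrb, Cd34, Dpp4, Sema3c and Clec3b were called lower there, and among agreeing cells 2 of the list were higher and 4 lower. Ptgfr, the receptor of prostaglandin F2-alpha, had a difference of 2.34 (SE 0.47, adjusted p = 0.0457) and 6 HC UMIs in Mmp3+ cells.

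Il11 had responses of opposite sign with all cells and not with agreeing cells. It was at 72.4 and 40.3 CPM in HC and 12.6, 6.98 and 10.7 CPM in STA in Mmp3+ cells, and at 9.25 and 1.88 CPM in HC and 30.5, 2.13 and 10.8 CPM in STA in the other fibroblasts. The difference of the log2 responses was -3.89 (SE 0.57, adjusted p = 0.00842). With agreeing cells only the Mmp3+ response of Il11 was 1.77, the opposite sign, and the difference of the responses was 0.055.

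The most deeply sampled comparison was that of STA + Il23mc with STA in experiment 1, with 634 and 655 Mmp3+ cells from the same well. It is 1 hashtag against 1, so no test of the treatment is possible. Ratios are given with 95% counting intervals, which cover counting error only. Ddx3y stood at 45.7 CPM under STA and 24.2 CPM under STA + Il23mc, and Xist at 249 and 424 CPM. Sex-linked transcripts therefore differed between the hashtags as well, and the mix of sexes cannot be told apart from Il23mc. Of 10271 genes with at least 50 UMIs in 1 of the hashtags, 201 (1.96%) were at least 2-fold higher and 232 (2.26%) at least 2-fold lower. The median log2 ratio of all these genes was -0.26 on the CPM scale and -0.03 after TMM scaling, under which the counts were 291 and 110. Ratios here are of CPM, so a ratio of 0 lies 0.26 above the median gene.

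Mmp3 was higher with Il23mc in the class named for it. It went from 1552 to 4455 CPM, a log2 ratio of 1.52 (interval up to 1.54), against 0.90 in the other fibroblasts. Tnfsf11 had a log2 ratio of 1.03 (0.91 to 1.16), from 60.2 to 123 CPM, and Tnfrsf11b one of -1.15 (-1.59 to -0.73), from 11.4 to 5.13 CPM. Cthrc1 went from 1140 to 583 CPM, a log2 ratio of -0.97 (-1.01 to -0.93). Cxcl5 had 0.42 and Il6, from 227 to 551 CPM, had 1.28. Prg4 had 0.68 in Mmp3+ cells and -1.30 in the other fibroblasts, whose Lining cells numbered 54 and 17 under the 2 hashtags.

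Cxcl13, Lcn2, Saa1 and Saa2 were among the 10 genes with the largest ratios, which Nts (neurotensin) led with 5.31. Lcn2 (lipocalin 2), which withholds iron from bacteria, went from 103 to 1569 CPM, a log2 ratio of 3.93 (3.85 to 4.01). Saa3 went from 1278 to 5476 CPM, and Saa1 and Saa2, near-identical copies whose reads the counting may split, had 3.90 and 3.75. Cxcl13, which attracts B cells, went from 5.86 to 214 CPM, with a log2 ratio of 5.19 (4.86 to 5.53), against 3.50 in the other fibroblasts. Of 14 NF-kB and acute-phase genes 6 were at least 2-fold higher and none lower, and the same held for 6 of 13 chemokines, with Cxcl9 at 2.82 and Ccl5 at 2.11, and 5 of 11 complement genes, with C3 at 1.39. After TMM scaling these 3 lists had 8, 8 and 7 members at least 2-fold higher. The zinc-binding metallothioneins Mt1 and Mt2 had 2.00 and 1.72.

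Interferon genes split into opposite groups. Of 18 measured, 4 were at least 2-fold higher and 4 at least 2-fold lower. Iigp1, a GTPase typical of the response to interferon-gamma, went from 9.39 to 94.7 CPM (log2 ratio 3.33). Isg15 (-1.59) and Ifit3 (-1.68), typical of type I interferon, were lower, and so was Rsad2 (-4.14). In the other fibroblasts Isg15 had 0.20 and Ifit3 0.10.

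Contractile and tendon genes were lower. Of 10 contractile genes 5 were at least 2-fold lower and none higher, with a median log2 ratio of -1.11, and -0.89 after TMM scaling. Lrrc15, a membrane protein of activated fibroblasts, went from 89.1 to 20.1 CPM (-2.15) and Myl9 from 56.3 to 20.2 CPM (-1.48). Of 6 tendon genes 3 were at least 2-fold lower, with Kera at -2.18 and Tnmd at -1.38. Of 20 cell cycle genes 4 were at least 2-fold lower, and none after TMM scaling. Fibrillar collagens stayed near the middle of all genes, with 1 of 17 at least 2-fold lower and a median of -0.24.

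**Figure D5:**
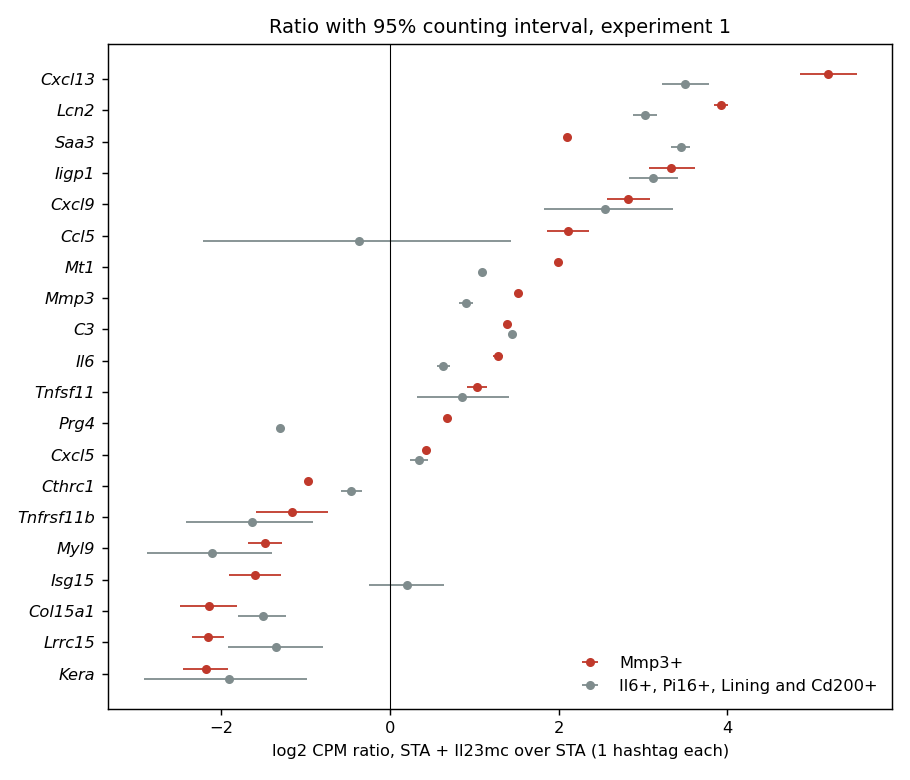
log2 CPM ratio of STA + Il23mc over STA in experiment 1 (horizontal axis, bars are 95% counting intervals) for 20 genes (vertical axis), in Mmp3+ cells and in the 4 other fibroblast annotations together. Most genes lie on the same side in both, while Prg4, Ccl5 and Isg15 do not.

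The 2 STA hashtags of experiment 2 differed less. Of 8050 genes with at least 50 UMIs, 78 (0.969%) were at least 2-fold higher under the severe hashtag and 66 (0.82%) at least 2-fold lower. This is again 1 hashtag against 1, without a test. The hashtags also differed in sex-linked transcripts, with Ddx3y at 0.249 CPM in mild and 33.8 CPM in severe cells and Xist at 700 and 411 CPM, so sex and the severity label cannot be told apart. Mmp3 was at 1397 CPM in mild and 1180 CPM in severe cells, a log2 ratio of -0.24 (-0.30 to -0.19), and Cxcl5 had 0.07. Tnfsf11 had -0.67 and Cthrc1 0.45.

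Acute-phase genes were lower in the severe hashtag and contractile genes were mixed. Hp (haptoglobin) went from 1064 to 380 CPM (log2 ratio -1.49) and Saa1 from 158 to 74 UMIs (log2 CPM ratio -1.39), and 4 of 14 genes of that list were at least 2-fold lower, none higher. Inhba had -1.12 and Cxcl3 -1.07. Cfd (complement factor D) had 179 UMIs in mild and 0 in severe cells, at least 73.4-fold lower against a floor of 3 counts. Pi16 had 1.22, Sfrp2 0.89, and the contractile genes Acta2 and Lrrc15 1.21 and 1.18, while Des had -1.47. Of 16 interferon genes 4 were at least 2-fold higher, led by Ifit1 (0.748 to 19.4 CPM, with 3 and 96 UMIs) and Ifit3. S100a8 and S100a9, abundant neutrophil transcripts, had 2.44 and 2.26 beside summed neutrophil markers of 7.98 and 39.5 CPM in mild and severe cells. The part of neutrophil RNA in these ratios was not tested.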

How the data were processed

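The deposited matrices hold raw UMI counts per gene and barcode of 2 fibroblast wells, made by the authors with Cell Ranger on mm10; the matrix headers name version 6.1.2 and the submitters' processing notes name 6.0.6. A deposited table gives, per cell, the authors' annotation, hashtag call, counts, mitochondrial fraction and scores (cell cycle, stress and hashtag margin). The authors' fraction and score columns entered no value here. How cells were filtered and doublets treated is not given in the sources used here, and no doublet caller was run. The members and gene lists were chosen with earlier results of these data known.

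UMI counts of the cells of an annotation were summed per hashtag, with 1658 matched Mmp3+ cells. HC and STA were compared with edgeR 4.0.16 (R 4.3.3): TMM scaling, filterByExpr, experiment and condition as terms, quasi-likelihood test, Benjamini-Hochberg adjustment, threshold 0.05. The fit had 6 sums, the STA + Il23mc sum included. The interaction was fitted over 12 sums. DESeq2 1.42.0, other scalings, filters, thinning to 2000 UMIs and leave-outs were alternatives. The code was tested on simulated counts. One-against-one ratios carry exact counting intervals, which cover counting error only, with a floor of 3 counts. Permutation tests were enumerated with numpy 2.4.6, and binomial intervals used scipy 1.17.1 (Clopper-Pearson).

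Genes were named by rule. For STA against HC these were the markers and a few fixed genes, the 10 with the largest change in each direction (past the threshold, no overlap of the groups, at least 20 CPM in 1 group), and up to 3 called members of each list. For the difference in response 8 in each direction were taken, for one-against-one ratios 10, and against other annotations 15 higher and 10 lower. Ddx3y, Tppp3 and Krt14, and list members given beyond these numbers, were chosen after their values were seen. Saa1 and Saa2, Hba-a1 and Hba-a2, and H2-K1 have near-identical copies, and their values are uncertain. Promoters are RefSeq windows.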

Additional observations from a re-analysis of the deposited data

Results flagged for a closer look

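Of the 54 genes whose response to STA differed between Mmp3+ cells and the other fibroblasts by the interaction test of edgeR, 16 were named by rule, 8 in each direction. The response was larger in Mmp3+ cells, by a log2 difference of 4.17, for Cxcl3. It was larger by 3.86 for Fat4, 3.45 for Slc1a3, 2.55 for Igfbp3, 2.34 for Ptgfr, 2.09 for Srgn, 2.08 for Pi16 and 2.03 for Thbs1. The rise of Igfbp3 in Mmp3+ cells, 1.18, was itself not past the threshold (adjusted p = 0.0558, edgeR test of STA against HC). Its response in the other fibroblasts was -1.23 (SE 0.22), with unlike HC values of 28.7 and 205 CPM. The response was lower in Mmp3+ cells for Dmkn (-5.31), Aqp3 (-4.89), Lgals7 (-4.17), Il11 (-3.89), Slurp1 (-3.56), Scg3 (-2.79), Lmo2 (-2.68) and Tnfsf15 (-2.54). Cxcl3, Fat4 and Slc1a3 had 1, 2 and 3 HC UMIs in Mmp3+ cells, so the size of their difference is not fixed by these data. Of the 16 genes, 1 was past the threshold without HC of experiment 2, 4 without HC of experiment 1, 8 without STA of experiment 1 and 16 with another scaling. None was past it with a filter of 20 CPM, 3 were with Il6+ cells in place of the other fibroblasts, 5 of 13 with DESeq2 and 4 with agreeing cells only (Slc1a3, Igfbp3, Thbs1 and Scg3).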

How the results depend on the processing

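The HC cells set the limits: 10 and 29 cells, of which 4 and 15 were called by their most abundant hashtag. The difference in the Mmp3+ share was 38.2 to 52.7 points with 1 hashtag left out and 44.5 points over all annotated cells.

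For STA against HC in Mmp3+ cells (435 genes higher, 357 lower), DESeq2 gave 159 higher. A filter of 20 CPM gave 141 higher and 208 lower, HC and STA hashtags alone 257 higher, and cells thinned to 2000 UMIs 202 higher and 47 lower. Without the experiment term, which serves as the replicate block, 29 were higher and 58 lower. Leave-outs gave 6 to 290 higher and 27 to 234 lower. Scalings, no filter and cells of at least 2000 UMIs moved neither count by over 1.5 times. Agreeing cells, an alternative chosen after seeing the data, also did not.

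For the difference in response (19 and 35), DESeq2 gave 3 and 19, no filter 128 and 149, a filter of 20 CPM 0 and 5 (358 and 402 before adjustment), and Il6+ cells in place of the rest 6 and 22. RLE scaling gave 60 lower and agreeing cells 19 lower. Leave-outs gave 0 to 66 higher and 6 to 97 lower. For STA + Il23mc against STA, at least 20 UMIs gave 317 and 430 genes, and TMM scaling 110 lower. For severe against mild, at least 20 UMIs gave 229 and 153. Means over cells gave 1746 genes higher and 559 lower than the other fibroblasts, and agreeing cells 735 higher.

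Some signs turned. With agreeing cells the log2 difference of Mmp10 was 1.49, of Il11 1.77 (0.055 for its difference in response), of Ckm 7.12 and of Acta1 8.85. With 1 hashtag left out it ran from -9.86 to 5.47 for Adamts8, from -1.52 to 0.61 for Adamts4, from -3.39 to 5.66 for Il1rn, from -2.03 to 0.66 for Lama2, from -1.93 to 0.074 for Ccn3, from -3.97 to 7.23 for Ckm, from -2.05 to 0.62 for Acta1 and from -3.83 to 4.14 for Hba-a2. The cause was not tested.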
